A study of Mus musculus with 6 samples.

Results

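The p53 target genes followed here were 10 protein-coding genes that the tumour suppressor p53 is known to switch on: Cdkn1a, Gadd45a and Ccng1, which act in cell cycle arrest and repair, Mdm2 and Trp53inp1, which feed back on p53 itself, Bax, Bbc3, Eda2r and Phlda3, which act on cell death and survival, and Zmat3, an RNA-binding protein. They were chosen by symbol, and all 10 were found among the 52636 genes of the table. The data were RNA-seq counts from the vestibular epithelium of male 129S1/SvImJ mice aged 2 to 4 months. In the IDPN group (n = 3 animals), mice drank water with 30 mM 3,3'-iminodipropionitrile, a nitrile that damages inner ear sensory cells (hair cells, HCs), for 8 weeks, and in the Control group (n = 3 animals) they drank water without it. Each library was made from the 2 utricles and 6 cristae of 1 animal, so HCs, supporting cells, nerve endings, stroma and blood cells were measured together. No mutant allele is named for either group, and the comparison asks which genes changed with the subchronic exposure.

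The p53 protein is a transcription factor that is held at a low level by MDM2, a ubiquitin ligase that marks it for destruction. When DNA damage, oxidative stress or blocked ribosome assembly stops this removal, p53 accumulates and binds pairs of short half-sites near its target genes. Part of the targets halt the cell cycle, part repair DNA, part promote apoptosis, and Mdm2 closes a negative loop. The p53 pathway is known for its role in the death of HCs exposed to other ototoxic agents, such as cisplatin. Most regulation of p53 is on the protein, which RNA-seq does not measure.

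Among the 10 genes, Gadd45a, Eda2r and Phlda3 passed the test as higher in the IDPN group, with fold changes of 2.87, 2.21 and 2.08. None passed it as lower. The best known targets did not follow them. Cdkn1a was high in a single IDPN animal, and Mdm2 differed by 1.21-fold without passing the test. Ccng1 was the only member with a lower mean normalized count in the IDPN group. A gene was called when its adjusted p (Padj, DESeq2 Wald test with Benjamini-Hochberg adjustment over all genes) was under 0.05 and its fold change exceeded 1.5. Thus 3 of 10 members were called higher, against 410 of the 17650 genes with a Padj (2.32%), and 0 of 10 were called lower, against 604 genes (3.42%). In either direction, 5.75% of all genes were called. Of the 3 members, only Gadd45a was also called by edgeR and by limma-voom.

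The libraries held between 40474847 and 43566332 estimated counts. The exact two-sided permutation test of their means gave p = 0.5, but 3 against 3 libraries cannot give a p under 0.1, so likeness of the groups was not shown. The 100 most abundant genes took 48.3% to 54.5% of the counts in Control and 44.6% to 48.2% in IDPN, and the part of this difference in the results was not tested. The defining HC markers were present in all libraries, with 9 of 15 downregulated. Their summed normalized count was 73641 to 76973 in Control and 35054 to 41645 in IDPN. Ptprq (Control mean 22558, IDPN mean 7730) and Kcna10 (Control mean 22223, IDPN mean 10818) made the largest contributions. The log2-Fold_Change was negative for 14 markers and positive for 1. Markers not called were Myo7a (0.01), Espn (-0.18), Myo6 (-0.21), Pvalb (-0.59), Atoh1 (-0.70) and Cdh23 (-0.70), so the fall was not shared evenly. In a bulk sample, fewer cells of a type and less RNA per cell cannot be told apart. Supporting cell markers were at 411460 to 610780 in Control and 302550 to 367070 in IDPN (2 of 13 downregulated, 0 upregulated). Neuronal markers were at 4904 to 5118 in Control and 3063 to 3374 in IDPN (3 of 7 downregulated, 0 upregulated). Macrophage markers were at 6015 to 7729 against 8503 to 13090 (1 of 11 upregulated). Most of this sum was Lyz2, the marker upregulated, at a mean of 4061 in Control and 6945 in IDPN. Of the 11, 9 had a positive and 2 a negative log2-Fold_Change, with Csf1r, Cx3cr1 and Cd14 at -0.01, -0.10 and 0.03. Melanocyte markers were at 6366 to 14355 against 14606 to 22129 (0 of 6 called), and erythroid markers at 16166 to 36635 against 34689 to 49091 (4 of 5 upregulated). Except for the erythroid sums, which overlapped, these sums separated the groups, the melanocyte sums only narrowly, as did all members called here. The part of these cells in the members' differences was not tested. Sums also overlapped for Schwann cells (91469 to 207210 against 83302 to 98917) and stroma (20441 to 39051 against 35993 to 38675). The same held for dark and transitional cells (52835 to 87617 against 57652 to 66528) and endothelium (5428 to 9786 against 4982 to 7712). Lymphocyte markers were at 131 to 235 against 129 to 174, with Nkg7 at 0 in all libraries. The second IDPN library stood apart. All 13 immediate early genes, which are induced within minutes of a stimulus, were there at over 2 times their level in any other library, and their sum was 443190 against 6094 to 13139 elsewhere. In the sample titles, all 3 Controls carry one animal code stem and the IDPN animals carry others, and what this stem stands for is confounded with exposure.

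The p53 half-site is a 10-base pattern, and its match was searched on both strands of windows of 250 bases before to 50 bases after each transcription start (RefSeq, GRCm38.p6). It was found in 2745 of 32851 windows of all genes (8.36%). Windows were at hand for 8 of the 10 members, and 5 of the 8 (Cdkn1a, Ccng1, Gadd45a, Mdm2 and Bax) held a half-site, while Phlda3, Eda2r and Bbc3 held none. Counted by window, as for all genes, 5 of the 11 member windows held a half-site. A pair of adjacent half-sites with at most 1 mismatch, the arrangement that p53 binds as a tetramer, was rarer, in 22 windows of all genes (0.067%), and 2 of these belonged to Cdkn1a and Ccng1. The rule for pairs was set after the Cdkn1a window had been seen. These stretches are shown because Cdkn1a and Ccng1 carry the pairs and yet were not called, while Gadd45a was called and held a single half-site. Each is written 5′ to 3′ on the strand of the gene, with the site in capitals. The stretches are chr17:29090888-29090987 (plus strand), with the Cdkn1a pair at position -51 from the upstream of its 2 starts, chr11:40755422-40755521 (minus strand), with the Ccng1 pair at -195, and chr6:67037398-67037487 (minus strand), with the Gadd45a half-site at -40.
Cdkn1a: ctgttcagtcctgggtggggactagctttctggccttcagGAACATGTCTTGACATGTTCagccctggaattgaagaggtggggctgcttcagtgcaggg
Ccng1: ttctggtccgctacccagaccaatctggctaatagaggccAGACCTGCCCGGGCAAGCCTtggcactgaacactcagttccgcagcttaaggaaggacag
Gadd45a: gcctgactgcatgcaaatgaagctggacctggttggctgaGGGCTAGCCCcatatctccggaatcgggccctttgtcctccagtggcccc
The other start of Cdkn1a lies 2790 bases downstream, and its window held no half-site. Both pairs differ from the pattern at 1 base. A match describes the letters of these windows and is not a measured binding site, and sites farther away or inside introns were not searched.

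**Figure D1:**
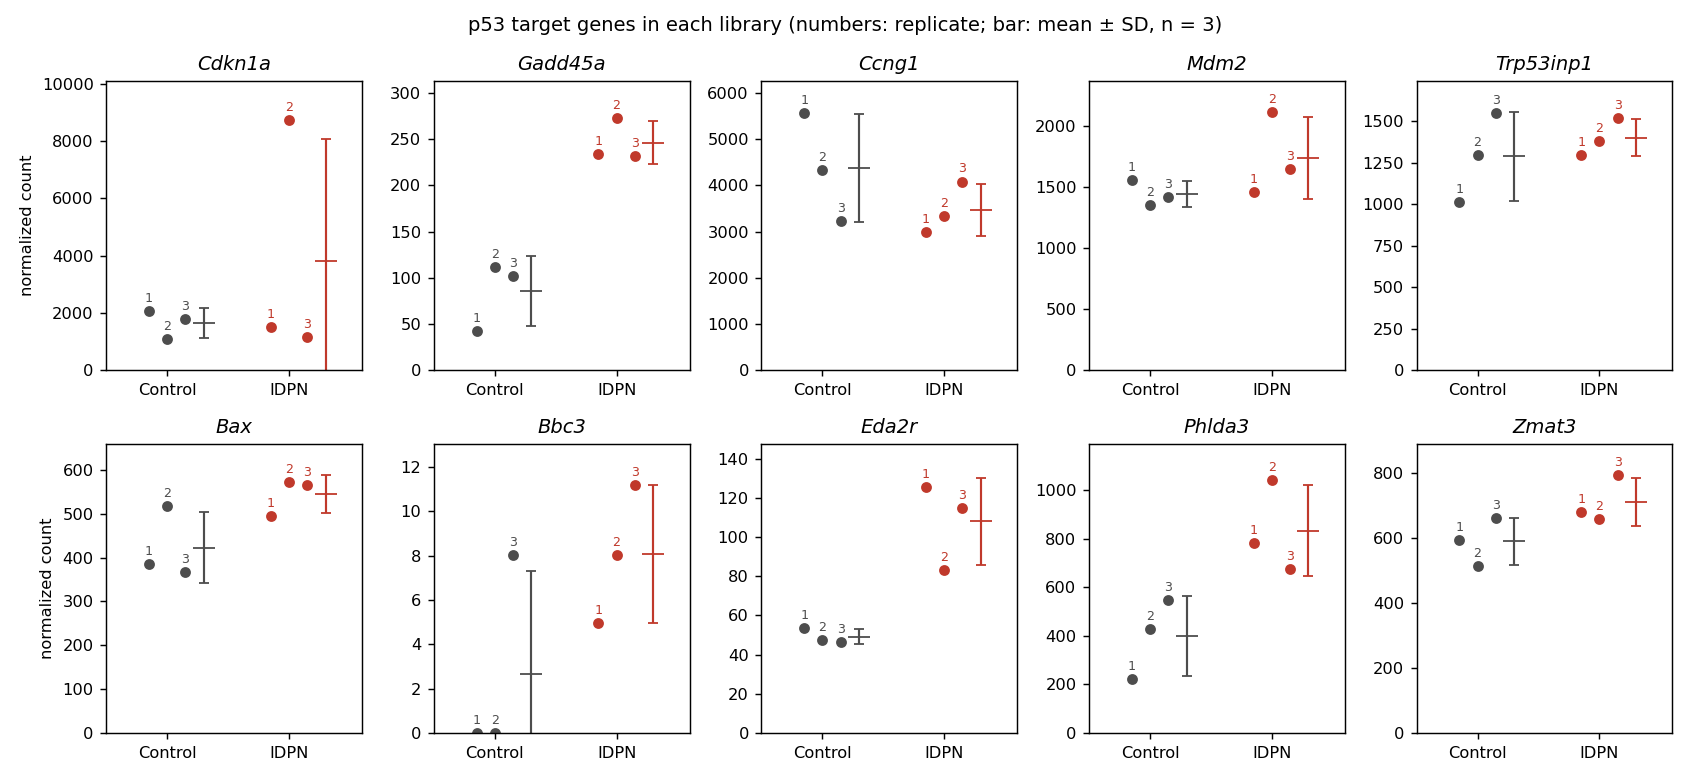
Normalized counts of the 10 p53 target genes (vertical axes, linear, each with its own range) in the 3 Control (grey) and 3 IDPN (red) libraries, numbered by replicate, with the mean ± SD of each group as a bar, cut at 0 where it would go below. All IDPN points lie above all Control points for Gadd45a, Eda2r and Phlda3, and the second IDPN point of Cdkn1a lies at 8712, far above the other 5.

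Cdkn1a encodes p21, an inhibitor of cyclin-dependent kinases and the classical readout of p53 activity (ENSMUSG00000023067.13, chromosome 17, 29090976 to 29100727, plus strand). Its normalized counts were 2073, 1077 and 1787 in Control and 1512, 8712 and 1164 in IDPN. The second IDPN library was 4.2 times the next highest library, whereas the other 2 IDPN values lay within the Control range. The log2-Fold_Change was 1.21 (SE 0.92, 95% interval -0.59 to 3.0, DESeq2 Padj = 0.566). Without the second IDPN library it was -0.30 (DESeq2 Padj = 0.705), so the direction of the group difference rested on that animal.

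Gadd45a encodes a small stress protein that binds p21 and PCNA and takes part in cell cycle arrest and DNA repair (ENSMUSG00000036390.8, chromosome 6, 67035096 to 67037457, minus strand). Its normalized counts were 42.4, 112 and 102 in Control and 234, 273 and 231 in IDPN. The lowest IDPN library was above the highest Control library, with the Control libraries more spread among themselves than the IDPN libraries. The log2-Fold_Change was 1.52 (SE 0.33, 95% interval 0.87 to 2.17, DESeq2 Padj = 0.00025). Leaving out any 1 library kept the call, with values of 1.2 to 1.75 and DESeq2 Padj from 0.000402 to 0.0102. The edgeR quasi-likelihood test gave Padj = 0.0379 and limma-voom Padj = 0.0275. Against the stricter null of a change of 1.5-fold, DESeq2 gave Padj = 0.366. Of its exon bases, 19.1% are shared with E230016M11Rik, a transcript on the opposite strand with a mean of 21 counts per library, and the reads of the 2 cannot be told apart where they overlap, since the library protocol keeps no strand. The related stress genes Gadd45b and Gadd45g did not pass the test, at log2-Fold_Changes of 0.68 (DESeq2 Padj = 0.138) and -0.26 (DESeq2 Padj = 0.832). Gadd45b was at 0.37 without the second IDPN library, and without the first IDPN library or under total-count scaling it passed, at 0.91 (Padj = 0.0226) and 0.90 (Padj = 0.0233). For Gadd45g the sign was not stable, with values from -1.0 to 0.02 when 1 library was left out.

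Ccng1 encodes cyclin G1, which recruits a phosphatase to MDM2 (ENSMUSG00000020326.7, chromosome 11, 40748552 to 40755311, minus strand). Its normalized counts were 5554, 4331 and 3230 in Control and 2981, 3345 and 4081 in IDPN. The groups overlapped, and 1 Control library was above all others. The log2-Fold_Change was -0.33 (SE 0.21, 95% interval -0.75 to 0.08, DESeq2 Padj = 0.451), and it was -0.05 when libraries were scaled to their total counts. Its relative Ccng2, which is not a classical p53 target, was at 0.25 (DESeq2 Padj = 0.784), and at -0.19 without the third IDPN library.

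Mdm2 was measured at 1560, 1350 and 1416 normalized counts in Control and 1460, 2112 and 1647 in IDPN (ENSMUSG00000020184.15, chromosome 10, 117688875 to 117710758, minus strand). The first IDPN library lay inside the Control range and the second was the highest of all 6. The log2-Fold_Change was 0.27 (SE 0.18, 95% interval -0.09 to 0.63, DESeq2 Padj = 0.494), and 0.11 without the second IDPN library. A change of 1.5-fold (0.585 on the log2 scale) thus stayed within the interval. Trp53inp1, which encodes a nuclear and autophagy-linked protein that raises p53 activity (ENSMUSG00000028211.11, chromosome 4, 11156431 to 11174379, plus strand), was at 1014, 1295 and 1551 in Control and 1298, 1381 and 1519 in IDPN. All 3 IDPN values fell inside the Control range. Its log2-Fold_Change of 0.12 (SE 0.19, 95% interval -0.26 to 0.50, DESeq2 Padj = 0.841) was the smallest in size of the 10 members, and turned to -0.03 without the first Control library.

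Bax encodes the pore-forming effector of mitochondrial apoptosis (ENSMUSG00000003873.11, chromosome 7, 45461697 to 45466898, minus strand). Bax had 386, 517 and 367 normalized counts in Control and 495, 573 and 566 in IDPN. Only the second Control library reached into the IDPN range. The log2-Fold_Change was 0.36 (SE 0.21, 95% interval -0.04 to 0.77, DESeq2 Padj = 0.372). Bbc3 encodes PUMA, a BH3-only protein that frees BAX from its inhibitors (ENSMUSG00000002083.13, chromosome 7, 16308393 to 16318205, plus strand). It was near the limit of detection, where the Control libraries had estimated counts of 0, 0 and 9 and the IDPN libraries 6, 8 and 12. The fitted log2-Fold_Change, 1.53, had an SE of 1.43 (DESeq2 Padj = 0.669) and ranged from 0.96 to 5.21 when 1 library was left out, so no difference in Bbc3 was detectable at this depth.

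Eda2r encodes XEDAR, a receptor of the tumour necrosis factor receptor family (ENSMUSG00000034457.10, chromosome X, 97333840 to 97377216, minus strand). Its normalized counts were 53.4, 47.3 and 46.3 in Control and 126, 83.3 and 115 in IDPN. The Control libraries were tightly grouped and all 3 IDPN libraries were above them, the second IDPN library being the lowest of the 3. The log2-Fold_Change was 1.14 (SE 0.34, 95% interval 0.47 to 1.82, DESeq2 Padj = 0.0201), and 1.30 without the second IDPN library. The direction was kept in all settings, but the call was not. The Padj was 0.0714 by edgeR and 0.0831 by limma-voom, and by DESeq2 it was 0.0569, 0.0882, 0.175 and 0.123 without the first Control, second Control, first IDPN and the third IDPN library.

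The ligand of this receptor is the A2 form of ectodysplasin, a product of Eda. In contrast to its receptor, Eda was downregulated, with 57.0, 92.3 and 109 normalized counts in Control and 9.93, 12.0 and 9.33 in IDPN. No library of a group came near the other group. The log2-Fold_Change was -3.05 (SE 0.48, DESeq2 Padj = 4.31e-08), an 8.28-fold lower mean, with edgeR Padj = 0.00479. The value was -3.16 without the second IDPN library (DESeq2 Padj = 2.06e-06). Gene-level counts do not separate the A1 form of ectodysplasin, which binds EDAR, from the A2 form. Edar was low and uneven, at 2.43, 50.8 and 0 in Control and 19.0, 17.1 and 28.0 in IDPN, and neither it (0.28, DESeq2 Padj = 0.943) nor its adaptor Edaradd (0.17, DESeq2 Padj = 0.895) nor the related receptor Tnfrsf19 (0.19, DESeq2 Padj = 0.726) passed the test. Eda and Eda2r moved in the libraries in which the HC and macrophage marker sums also differed. The HC sum, led by Ptprq and Kcna10, was lower there, and the macrophage sum, mostly Lyz2, was higher. The part of these cells in either difference was not tested.

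**Figure D2:**
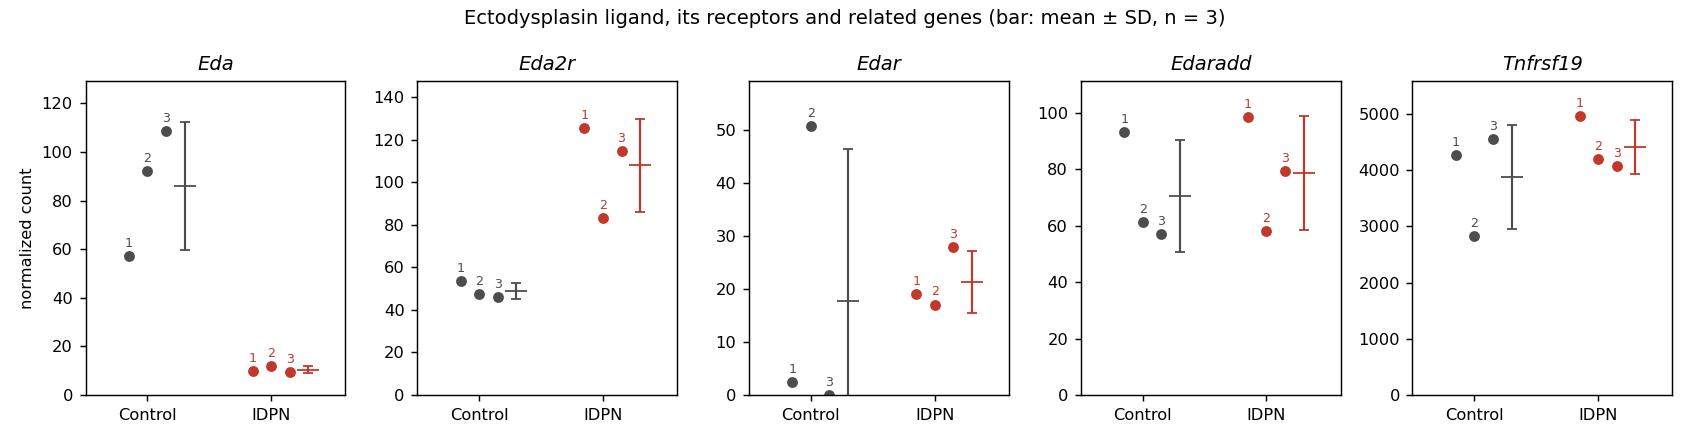
Normalized counts (vertical axes, linear, each with its own range) of Eda, of the p53 target gene Eda2r, and of Edar, Edaradd and Tnfrsf19 in the 3 Control (grey) and 3 IDPN (red) libraries, numbered by replicate, with bars for the mean ± SD, cut at 0 where it would go below. Eda lies between 57.0 and 109 in Control and between 9.33 and 12.0 in IDPN, whereas Eda2r lies lower in all Control libraries than in any IDPN library.

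Phlda3 encodes a pleckstrin homology domain protein that competes with AKT for membrane lipids and so lowers survival signalling (ENSMUSG00000041801.5, chromosome 1, 135766119 to 135769136, plus strand). Its normalized counts were 223, 429 and 548 in Control and 780, 1041 and 677 in IDPN. All IDPN libraries were above all Control libraries, although the Control libraries spread over more than 2-fold. The log2-Fold_Change was 1.05 (SE 0.29, 95% interval 0.49 to 1.61, DESeq2 Padj = 0.00676). It was 0.76 without the first Control library (DESeq2 Padj = 0.0543) and 0.86 without the second IDPN library (DESeq2 Padj = 0.1), and neither edgeR (Padj = 0.0917) nor limma-voom (Padj = 0.0783) called it. Its relative Phlda1, which is not among the 10, was at 1120 in the second IDPN library, 5.45 times the next highest library, and was not called (DESeq2 Padj = 0.414).

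Zmat3 encodes a zinc finger protein that binds RNA and acts downstream of p53 in growth control (ENSMUSG00000027663.12, chromosome 3, 32334792 to 32366014, minus strand). Control libraries held 594, 514 and 659 normalized counts of Zmat3 and IDPN libraries 678, 658 and 794. The groups met at their edges, the highest Control and the lowest IDPN library being nearly equal. The log2-Fold_Change was 0.27 (SE 0.19, 95% interval -0.10 to 0.64, DESeq2 Padj = 0.514).

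Read against the whole transcriptome, 9 of 10 members had a positive log2-Fold_Change, as did 51.6% of the genes with a Padj. The median of the 10 was 0.71, and 0.32 without the second IDPN library. With at least 10 counts in 3 libraries, which removes Bbc3, the median of the members was 0.36, against 0.01 for the 16418 genes that pass. The groups did not overlap, with IDPN higher, for 3 of 10 members, against 1962 of all genes tested (11.1%). No member had all IDPN libraries below all Control libraries, against 11.4% of genes. When libraries were scaled to total counts, the log2-Fold_Change of all genes shifted up, to a median of 0.27, and 609 genes were called higher and 214 lower in place of 410 and 604. On that scale 5 of 10 members (Mdm2, Phlda3, Eda2r, Bax and Gadd45a) had all IDPN libraries above all Control libraries, against 19.3% of all genes.

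**Figure D3:**
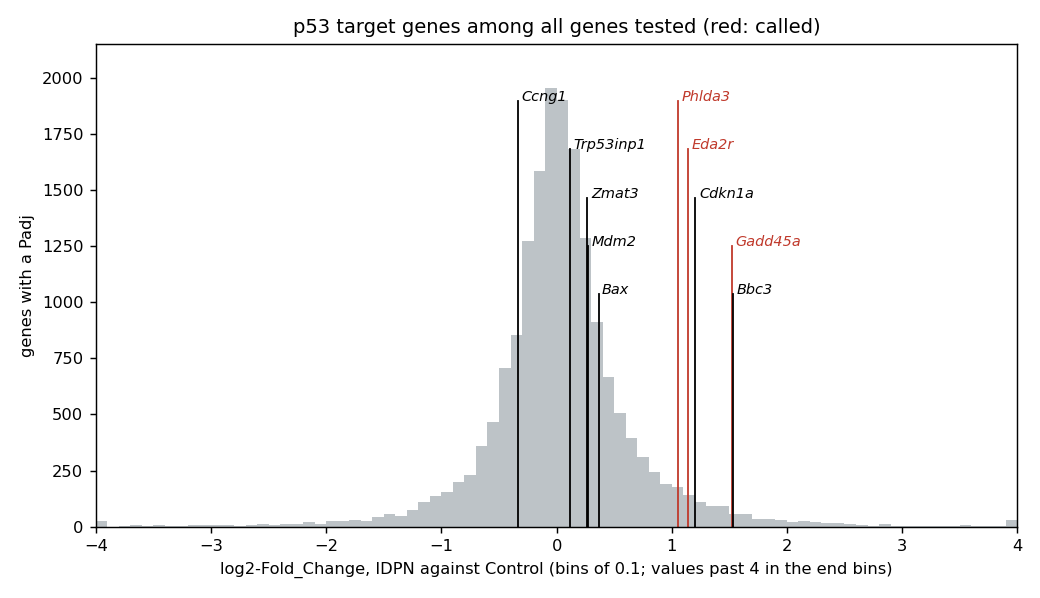
Histogram of the log2-Fold_Change of IDPN against Control (horizontal axis, bins of 0.1, values past 4 placed in the end bins) for the 17650 genes with a Padj, with the number of genes on the vertical axis and a vertical line at each of the 10 p53 target genes, red where called. Of the lines, 9 lie right of 0, the 3 red ones between 1.05 and 1.52, and only Ccng1, at -0.33, lies left; line heights carry no value.

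**Figure D4:**
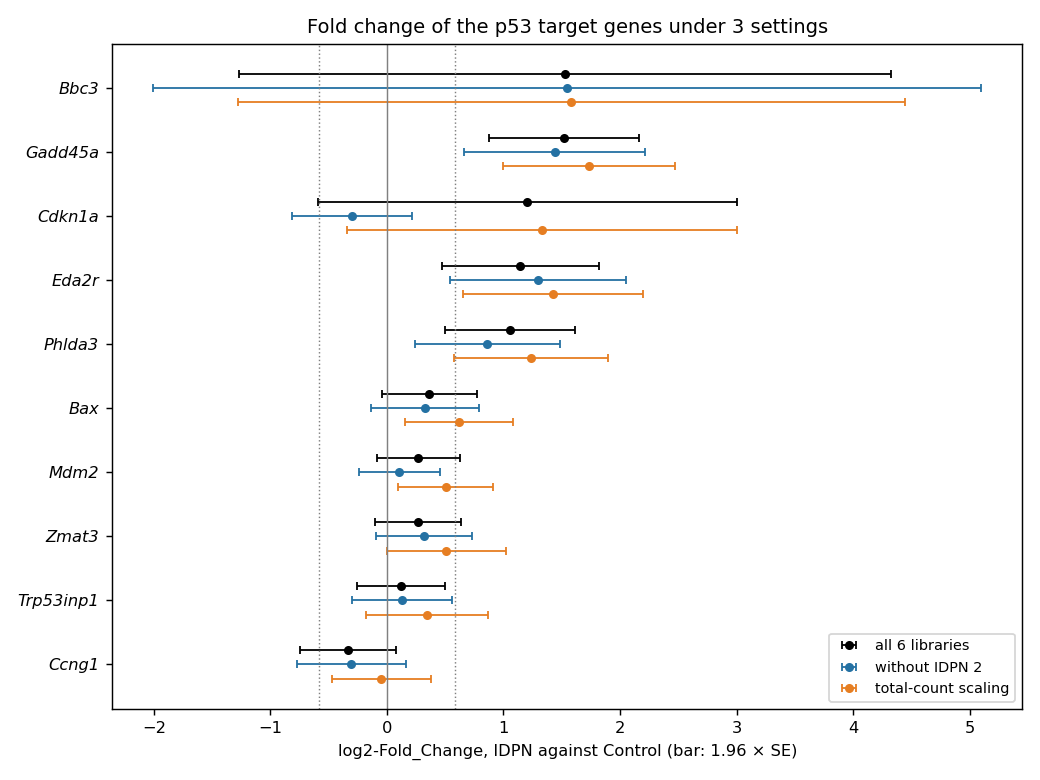
log2-Fold_Change of IDPN against Control (horizontal axis) for the 10 p53 target genes, with bars for the 95% interval, from all 6 libraries (black), without the second IDPN library (blue) and with total-count scaling (orange); dotted lines mark a fold change of 1.5. Cdkn1a crosses from 1.21 to -0.30 without that library, whereas Gadd45a, Eda2r and Phlda3 stay right of 0 with their whole bars.

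The second IDPN library was the highest of the 6 for 5 of 10 members (Cdkn1a, Mdm2, Phlda3, Bax and Gadd45a), as it was for 19.9% of all genes tested. For most of these the excess was small, 1.01 times the next highest library for Bax, 1.17 for Gadd45a, 1.28 for Mdm2 and 1.33 for Phlda3. Only Cdkn1a exceeded 2 times the next highest library, as 1.24% of all genes did. Of 35 other p53 targets with a Padj, 10 were highest in that library (28.6%). Of the 35, 4 (11.4%) exceeded 2 times the next highest library, against 1.24% of all genes tested. These counts leave out targets with no Padj, among them Btg2 and Epha2. The following were named after their values were seen. Btg2, Epha2, Egr1, Fos and Atf3 among them have no Padj in the fit of all libraries. Btg2, an antiproliferative gene, was at 45607 normalized counts there and at most 1194 elsewhere, which was 38.2 times the next highest library. The stress kinases Plk3 and Plk2 were at 11.4 and 2.38 times the next highest library, the ephrin receptor Epha2 at 8.19 times and the checkpoint protein Sfn (14-3-3 sigma) at 5.96 times. In the same library Egr1 and Fos, 2 immediate early genes, were at 407 and 133 times, and the stress factors Atf3 and Atf4 at 24 and 3.26 times. Without that library the log2-Fold_Change of Btg2 was -0.06, of Plk2 -0.25 and of Epha2 -0.13, whereas Sfn (0.72), Plk3 (1.01) and Atf3 (1.08) stayed positive, with a DESeq2 Padj of 0.771, 0.464 and 0.133. The normalized counts of Atf3 in IDPN (102, 3420 and 143) all lay above those in Control (65.5, 38.1 and 69.4), as for 11.1% of all genes tested. Whether the high Cdkn1a and the high immediate early genes of the second IDPN animal have a common source was not tested.

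**Figure D5:**
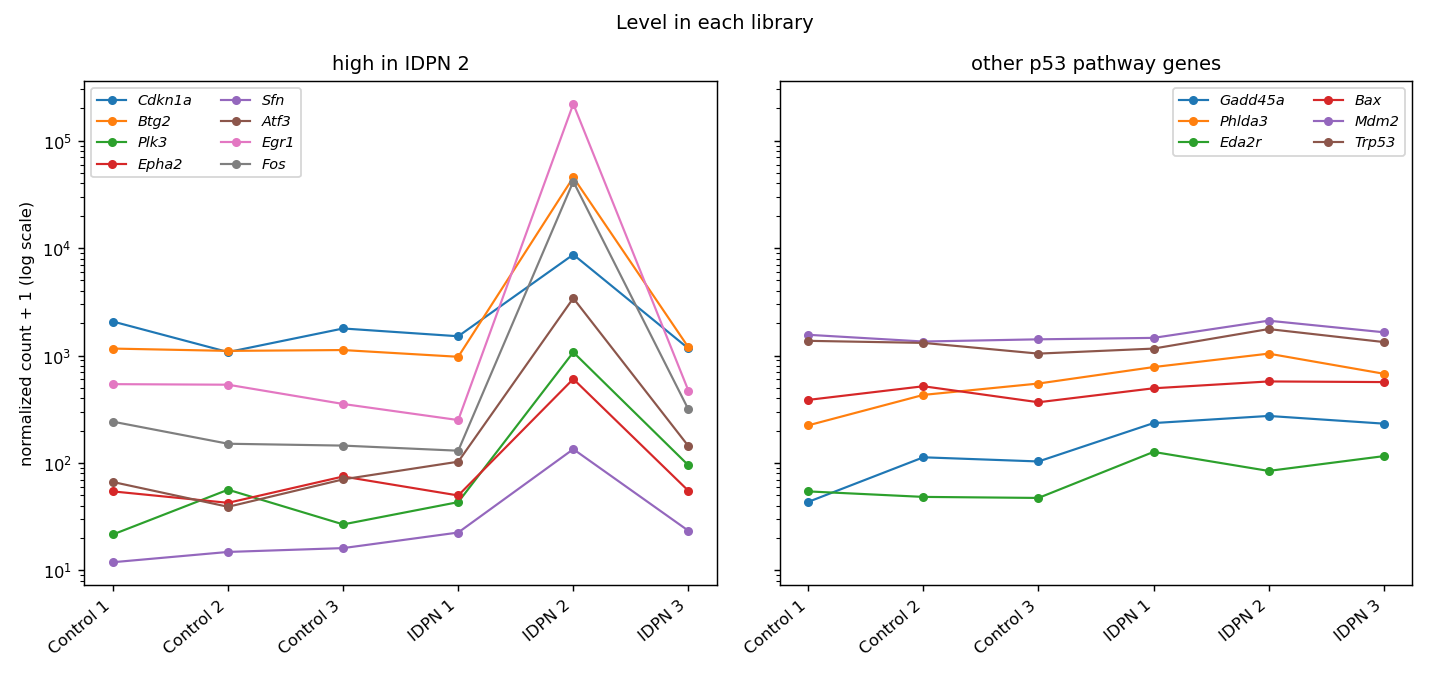
Normalized count plus 1 (vertical axes, log scale) in each of the 6 libraries (horizontal axis; the lines only join the points of a gene) for genes high in the second IDPN library (left, with Cdkn1a) and for other genes of the p53 pathway (right). In the left panel all 8 genes peak in the second IDPN library, up to 220090 for Egr1, while on the right Gadd45a and Eda2r are raised in all 3 IDPN libraries.

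Upstream of these genes, a single regulator passed the test. Of 17 regulators with a Padj, all had a positive log2-Fold_Change (51.6% of all genes), with a median of 0.27. Of the 17, 1 was called higher and 0 lower, against 2.32% and 3.42% of all genes. All IDPN libraries were above all Control libraries for 5 of the 17 and below for 0, against 11.1% and 11.4% of all genes. Trp53 itself was at 1371, 1311 and 1042 normalized counts in Control and 1160, 1764 and 1336 in IDPN, with overlapping groups. Its log2-Fold_Change was 0.19 (SE 0.20, DESeq2 Padj = 0.717), and 0.01 without the second IDPN library. Mdm4, the partner of MDM2 that blocks p53 activity, was at 0.07 (DESeq2 Padj = 0.927), and at -0.09 without the second Control library. Atr, a kinase that senses stalled replication and single-stranded DNA, was the regulator called, at 141, 144 and 161 in Control and 269, 198 and 301 after IDPN, without overlap. This was a log2-Fold_Change of 0.78 ± 0.25 (SE) with a DESeq2 Padj of 0.0367, and 0.94 without the second IDPN library (DESeq2 Padj = 0.0141). The call was lost by edgeR (Padj = 0.0919), and by DESeq2 without the first Control (Padj = 0.164), second Control (0.158), first IDPN (0.174) or the third IDPN library (0.243). Cdkn2a, whose product ARF restrains MDM2, had 0 counts in all 6 libraries.

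Among 35 other p53 targets with a Padj, 25 had a positive and 10 a negative log2-Fold_Change (51.6% of all genes were positive), with a median of 0.24. Of these, 2 were called higher and 0 lower, against 2.32% and 3.42% of all genes. All IDPN libraries were above all Control libraries for 5 of the 35 and below for 1, against 11.1% and 11.4% of all genes. Tap1, a peptide transporter of antigen presentation that also responds to interferon, was at 275, 227 and 292 in Control and 461, 477 and 581 after IDPN, again without overlap. This was a log2-Fold_Change of 0.93 ± 0.21 (SE) with a DESeq2 Padj of 0.000465, and the call was kept by edgeR (Padj = 0.0191) and without any 1 library. Interferon-responsive genes rose in the same libraries, with 11 of 18 called higher (2.32% of all genes). Their summed counts were 10356 to 16070 in Control and 20215 to 48766 in IDPN. Sfn was at 2.14 (SE 0.70, DESeq2 Padj = 0.0375), and at 0.72 without the second IDPN library (DESeq2 Padj = 0.771). It was not called without any of the 3 Control libraries either (Padj 0.177, 0.153 and 0.072). Classical targets such as Sesn1, Sesn2, Ddb2, Fas, Perp, Aen and Rrm2b did not pass the test, at log2-Fold_Changes of -0.25, 0.47, 0.39, -0.09, 0.12, 0.42 and -0.03. Psrc1 (2.36, DESeq2 Padj = 0.068), Pidd1 (0.87, DESeq2 Padj = 0.376) and Ppm1d (0.60, DESeq2 Padj = 0.264) did not pass either, though their groups did not overlap. Psrc1 had at most 4 estimated counts in any Control library. Abhd4 was the target with all IDPN libraries below Control (-0.34, DESeq2 Padj = 0.226).

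In the BCL2 family, of which Bax and Bbc3 are members, 1 of 14 other genes with a Padj was called (5.75% of all genes). Mcl1, an antiapoptotic protein of short half-life, had 376, 481 and 548 normalized counts in the Control libraries and 524, 1657 and 899 after IDPN, with the second IDPN library far above the rest. The log2-Fold_Change of 1.13 (SE 0.32, DESeq2 Padj = 0.00999) fell to 0.60 without the second IDPN library (DESeq2 Padj = 0.251). It was also lost by edgeR (Padj = 0.121), without any 1 of the 3 Control libraries (DESeq2 Padj 0.121, 0.084 and 0.201) and without the third IDPN library (DESeq2 Padj = 0.0507). Bcl2 (-0.38, DESeq2 Padj = 0.144), Bcl2l1 (0.21, DESeq2 Padj = 0.774) and Bcl2l11 (-0.04, DESeq2 Padj = 0.962) were not called.

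Among the kinase inhibitors related to Cdkn1a, 1 of 5 with a Padj was called, against 5.75% of all genes. The groups did not overlap for any of the 5, with IDPN higher for 2 and lower for 3 (11.1% and 11.4% of all genes). Cdkn1c, which encodes p57, was at 566, 523 and 401 in Control and 658, 705 and 995 in IDPN. All IDPN libraries were above all Control libraries, and the log2-Fold_Change was 0.66 (SE 0.22, DESeq2 Padj = 0.0476). This call was lost by edgeR (Padj = 0.105) and, by DESeq2, without any 1 of the Control libraries (Padj 0.0613, 0.15 and 0.139), without the second IDPN library (Padj 0.0638) or without the third (Padj 0.342). Cdkn1b, which encodes p27, was at 237, 317 and 233 in Control and 190, 195 and 215 after IDPN, without overlap, and was not called (log2-Fold_Change -0.39, DESeq2 Padj = 0.414). Thus the 3 genes of this kinase inhibitor subfamily, Cdkn1a, Cdkn1b and Cdkn1c, did not show one shared pattern across the 6 libraries.

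Stress and proliferation lists were set beside the members because Gadd45a and Cdkn1a are known to answer other signals too. In the integrated stress response, the programme run by ATF4 that reduces protein synthesis, 2 of 15 genes with a Padj were called higher and 0 lower. The shares of all genes were 2.32% and 3.42%. Atf3 had no Padj and is not among the 15. Atf4 was at 0.80 (DESeq2 Padj = 0.585), and at -0.11 without the second IDPN library, and Ddit3 was at 0.65 (DESeq2 Padj = 0.273), and at 0.06 without that library. Trib3 was at 0.67 (DESeq2 Padj = 0.225), and at 0.76 without it. The genes called were a pair of secreted hormones. Gdf15, also a known p53 target, was at 10.9, 5.77 and 9.79 in Control and 24.8, 40.2 and 33.6 after IDPN (log2-Fold_Change 1.89, SE 0.64, DESeq2 Padj = 0.0479). The Gdf15 call was lost by edgeR (Padj = 0.0803) and on leaving out any 1 library (DESeq2 Padj from 0.0656 to 0.26). Fgf21 had 0 counts in all Control libraries and 4, 36 and 8 estimated counts in IDPN (DESeq2 Padj = 0.00459), and DESeq2 gave no Padj without the second IDPN or the third Control library. In the cell cycle list, Cdc20 was called higher (1.52, DESeq2 Padj = 0.0325) and Plk1 lower (-1.78, DESeq2 Padj = 0.0171) among 10 genes with a Padj. Of all genes, 2.32% were called higher and 3.42% lower. The Cdc20 call was lost on leaving out any 1 Control library or the second IDPN library (DESeq2 Padj from 0.224 to 0.716), its value being 0.46 without the latter, and that of Plk1 without the second Control, the second IDPN or the third IDPN library (DESeq2 Padj from 0.0684 to 0.217).

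The members differed widely in level. Per length, as TPM (counts divided by the exon length of each gene and scaled to one fixed total per library), Ccng1 was the highest in Control at 57.8 ± 6.64 TPM (SD, n = 3), followed by Cdkn1a at 22.3 ± 8.30. Mdm2 (13.6 ± 2.49), Phlda3 (12.9 ± 7.40), Bax (12.7 ± 2.26) and Trp53inp1 (9.77 ± 3.90) came next and did not differ from each other beyond their spread, and Cdkn1a overlapped with all 4 in single libraries. Zmat3 (2.5 ± 0.774) and Gadd45a (2.39 ± 1.25) likewise did not differ beyond their spread. Eda2r was at 0.396 ± 0.058 TPM and Bbc3 at 0.0738 ± 0.128. In IDPN, Gadd45a was at 8.49 ± 0.696 TPM, above Zmat3 at 3.80 ± 0.626, and Eda2r was at 1.14 ± 0.367. Ccng1 was at 60.1 ± 9.58 TPM in IDPN, so on this scale its mean was not lower than in Control. Gadd45a and Eda2r, both called, were thus among the 4 members of lowest level in Control. The order in Control was the same for 8 of 10 members when the longest transcript was used as the length. With its fixed total, TPM moves with the total-count scale described above.

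The genes whose pattern over the 6 libraries was most like the mean standardized level of the 10 members were AU020206 (Pearson r = 0.995), Kdm2a (0.995), Ap3s1 (0.994) and Ttc9 (0.994), out of 11762 genes whose normalized counts averaged 100 or more. These correlations are a description over 6 libraries that share their treatment groups. Of these, AU020206 and Ttc9 were called higher, at log2-Fold_Changes of 0.96 and 0.83 (DESeq2 Padj = 0.000243 and 0.0272).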

How the data were processed

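Vestibular epithelium of 3 Control and 3 IDPN mice was profiled by SMART-seq2 from 6 to 11 ng of total RNA, with 8 cycles of cDNA and 12 cycles of library amplification and no molecular identifiers. The authors aligned the reads with STAR 2.5.3a to GRCm38 and estimated gene counts with RSEM 2.3.0 on GENCODE M15. The deposited values are these expected counts, stored as whole numbers without normalization. RSEM divides reads that match several genes, and of 76-base stretches 13.8% in Gadd45a, 6.99% in Cdkn1a and 6.78% in Bax also occur in other genes. The labels give all libraries 1 batch. Replicates were numbered in accession order, and each is 1 animal.

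All genes were fitted with the DESeq2 Wald test (DESeq2 1.42.0, R 4.3.3, median-of-ratios size factors 0.825 to 1.21, no covariate, independent filtering and Cook's distance filter on), with the thresholds of the study's methods. Intervals (95%) are Wald intervals from the SE. Normalized counts are counts divided by the size factor. Alternatives were edgeR 4.0.16, limma-voom (limma 3.58.1), other scalings and filters, a test against a 1.5-fold change, and leaving out each library. Applying them to genes outside the 10 members, and group overlap under total-count scaling, were chosen after seeing the data. The code was tested on simulated data. Gene coordinates and lengths came from GENCODE M21 on GRCm38, and TPM from the union of exons (99.7% of genes had a length). RefSeq promoter windows were given for neither Trp53inp1 nor Zmat3. The members and lists were chosen with earlier results of these data known. All 10 members are reported, together with 11 related genes, up to 6 called genes per list and the 5 genes most alike, of which 1 is not reported here; other genes were named after their values were seen. Genes with 0 counts throughout, with outlying counts by the Cook's distance filter, or removed by independent filtering as too low have no Padj.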

Additional observations from a re-analysis of the deposited data

How the results depend on the processing

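The members called higher fell from 3 to 1 by edgeR and by limma-voom and to 0 when tested against a 1.5-fold change, with 1 to 3 on leaving out 1 library; Gadd45a was the one kept by edgeR and limma-voom. The members' median log2-Fold_Change of 0.71 became 0.364 with at least 10 counts in 3 libraries, 0.370 by edgeR and 0.386 by limma-voom, all without Bbc3, which their count filters remove, 0.929 under total-count scaling, and 0.323 to 0.744 on leaving out 1 library. Over all genes, calls higher (410) became 166 by edgeR, 153 by limma-voom, 34 against a 1.5-fold change and 234 to 611 on leaving out 1 library, and calls lower (604) became 357, 353, 111 and 436 to 720, and 214 under total-count scaling. On leaving out 1 library, values of these genes ranged as follows, with the sign turning: Cdkn1a -0.298 to 1.63, Atf4 -0.111 to 1.12, Btg2 -0.061 to 4.38, Plk2 -0.247 to 0.939 and Epha2 -0.134 to 2.55, each negative only without IDPN 2; Trp53inp1 -0.0293 (without Control 1) to 0.278, Mdm4 -0.0887 (without Control 2) to 0.283, Ccng2 -0.188 (without IDPN 3) to 0.586, and Gadd45g -1.0 (without IDPN 2) to 0.0163, positive without Control 2 (0.0082), IDPN 1 (0.00241) or IDPN 3. The causes were not tested. Of 137 values of single members under alternatives, 122 kept direction and side of the threshold, 13 lost a call and 2 changed sign. No paired analysis was possible, since each animal belonged to only 1 group and the labels name no pairs. With 3 animals a group, and 0 to 12 counts for Bbc3, small changes could not be resolved.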
